A study of Mus musculus with 18 samples.

Results

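The genes described here are those whose newly transcribed RNA changed when NIH-3T3 cells, an established line of mouse embryonic fibroblasts, were given interferon alpha (IFNα) while protein synthesis was blocked. The comparison was defined by the labels alone and set 3 arrays of cells given 100 U/ml IFNα for 60 min together with cycloheximide (CHX) against 3 arrays of mock-treated cells that had received CHX too. These 6 arrays were part of a series of 18, which also held IFNγ with CHX and mock, IFNα and IFNγ without CHX, with 3 biological replicates each. CHX was added 15 min before the interferon in all CHX groups, so that both arms of the comparison carried the block. The groups without CHX were pretreated for 15 min with the vehicle DMSO instead. IFNγ too was given at 100 U/ml for 60 min. The cells incorporated 4-thiouridine (4sU, 500 µM), a uridine analogue, between 30 and 60 min of treatment, and the tagged RNA made in that interval was purified and hybridized to Affymetrix mouse genome arrays. All values are therefore levels of RNA made in the last 30 min, in linear intensity units per probe set. They are called gc-RMA units here after the study's methods, and changes are differences of log2 intensity. All cells came from a single line, so the replicates do not cover differences between animals or cell types.

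IFNα binds the receptor formed by IFNAR1 and IFNAR2 and activates the kinases JAK1 and TYK2, which phosphorylate STAT proteins. With IRF9 the STATs form the complex ISGF3, which enters the nucleus and binds the interferon-stimulated response element (ISRE). STAT dimers, the main mediators of IFNγ, bind the gamma-activated sequence (GAS). All these proteins are present before interferon arrives, which makes the transcription that runs in CHX the primary response. Proteins made from the first transcripts, such as the transcription factors IRF1 and IRF7, or the inhibitors USP18 and SOCS1, feed back on the pathway, and CHX prevents their synthesis.

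The promoter sequences of several leading genes carried ISRE-type letters close to the start of transcription, and they are shown because ISGF3 is known to bind such letters. Binding sites of IRF proteins look much like the ISRE, as the study states, so the letters alone do not tell them apart. The genes shown were chosen among those with a match. Xaf1, Oasl2, Cxcl9 and Tap1, also among the larger rises, held 0 matches in the 300 bases searched. No promoter was at hand for Usp18, Mx2, Gbp6 or Rtp4. The windows below come from RefSeq promoter sequences (build GRCm38.p6) and run 5′ to 3′ on the strand of the gene. Capitals mark matches to GAAANNGAAA or, where the match lies on the other strand, to TTTCNNTTTC. Positions are counted from the annotated start of transcription, with upstream bases negative. Irgm2 and Igtp, which encode immunity-related GTPases and neighbour each other on chromosome 11, carried the match at -64 to -55 and -34 to -25. In both a GAS-type match (TTCNNNGAA) began shortly before it, at -75 in Irgm2 and at -45 in Igtp. Ifit1, which encodes an antiviral binder of viral RNA, had matches within -104 to -76. Those of Ifit3, its neighbour in function, lay in separate stretches, of which the one at -122 to -113 is shown. Trim21, an intracellular antibody receptor, carried overlapping matches within 13 to 28 bases after the start. Overlapping matches were also found in Gbp3, a guanylate-binding protein gene, within -45 to -30, in Irgm1, an immunity-related GTPase gene, within -30 to -15, and in Socs1, the gene of an inhibitor of JAK kinases, within -83 to -68. Stat2, which encodes a subunit of ISGF3 itself, had its match at -222 to -213, and Cxcl10, a chemokine gene, at -213 to -204.
Irgm2 (chr11:58214898-58214937, + strand): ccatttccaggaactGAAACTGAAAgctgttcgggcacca
Igtp (chr11:58199507-58199546, + strand): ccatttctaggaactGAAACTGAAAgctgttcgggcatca
Ifit1 (chr19:34640770-34640828, + strand): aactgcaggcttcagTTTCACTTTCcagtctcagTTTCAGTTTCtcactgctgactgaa
Ifit3 (chr19:34583392-34583431, + strand): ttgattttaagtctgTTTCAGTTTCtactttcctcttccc
Trim21 (chr7:102565439-102565484, - strand): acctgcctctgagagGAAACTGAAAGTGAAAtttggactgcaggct
Gbp3 (chr3:142559984-142560029, + strand): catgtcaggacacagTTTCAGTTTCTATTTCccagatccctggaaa
Irgm1 (chr11:48871420-48871465, - strand): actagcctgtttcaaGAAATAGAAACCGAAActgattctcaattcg
Socs1 (chr16:10785589-10785634, - strand): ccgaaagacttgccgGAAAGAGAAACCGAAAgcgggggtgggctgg
Stat2 (chr10:128270261-128270300, + strand): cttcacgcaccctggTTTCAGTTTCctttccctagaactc
Cxcl10 (chr5:92349078-92349117, - strand): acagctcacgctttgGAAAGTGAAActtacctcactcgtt

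With CHX present, IFNα raised the newly transcribed RNA of a compact set of genes and lowered almost none. Of 27773 probe sets tested, 247 were raised (0.889%) and 1 was lowered (0.0036%) at least 2-fold with an adjusted p under 0.01 in limma. Per gene, with the probe set of highest mean intensity standing for each gene, 146 of 12121 genes were raised (1.2%) and 0 were lowered. At an unadjusted p under 0.05, 471 genes (3.89%) were higher and 97 (0.800%) were lower with IFNα. The median change of all genes was -0.02 and that of the raised genes 2.44. The raised genes spanned log2 changes from 1.01 to 8.79, with 57 of them under 2, 45 between 2 and 4, 25 between 4 and 6 and 19 above 6. For each of the 146 genes the 3 arrays with IFNα and CHX lay above the 3 arrays with CHX alone. The genes were called on these same arrays, which favours such a separation, and its share over all genes was not determined. The only lowered probe set has no gene annotated and had intensities of 10.4, 10.2 and 10 with IFNα and CHX against 19.9, 17.5 and 27.1 with CHX alone, which is a log2 change of -1.05 ± 0.18 (SE, adjusted p = 0.0049). This call was lost with other constants added before the logarithm.

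The labelled cell type was checked against markers. The summed intensity of 15 fibroblast markers was 70826 to 74596 on the arrays with IFNα and CHX and 67535 to 75792 on those with CHX alone, and 0 of 14 tested markers were raised, with a median change of 0.04. Of 13 leukocyte markers on the array, 10 stayed under an intensity of 10 on all arrays of either group, and the sums were 368 to 797 with IFNα and CHX and 370 to 619 with CHX alone. Of 9 housekeeping genes tested, 0 were raised or lowered, with changes between -0.17 and 0.05. Array medians of the series lay between 9.6 and 10.8.

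The largest rises were those of GTPases that restrict intracellular pathogens and of antiviral genes that were near the lower end of the intensity scale without interferon. For 30 of the 146 raised genes all arrays with CHX alone lay at or below the median of their array, so the size of such a rise and its rank depend on the floor. For those of these genes whose intensities are printed, a bound is given as well. In it, values under the median of their array were set to that median, written as at least so much against the floor. Irgm2 had intensities of 4464, 4155 and 3735 with IFNα and CHX, against 10, 8.9 and 9.0 with CHX alone. The log2 change was 8.79 ± 0.14 (SE, n = 3 each, adjusted p = 1.85e-14). Usp18, which encodes a protease that removes ISG15 from proteins and blocks signalling at the IFNα receptor, followed with 2167, 1991 and 1901 against 5.9, 6.4 and 6.4 with CHX alone. Its change was 8.34 ± 0.15 (adjusted p = 5.58e-14), or at least 7.60 against the floor. An inhibitor of the pathway was thus among the genes with the largest change. Igtp had 2578, 2247 and 1936 with IFNα and CHX against 4.9, 8.1 and 10.4 with CHX alone, a change of 8.23 ± 0.23 (adjusted p = 7.01e-12). Mx2, a dynamin-like GTPase that blocks virus replication, showed 1213, 1155 and 984 against 5.1, 5.1 and 5.0 with CHX alone. The log2 change of Mx2 was 7.78 ± 0.08 (adjusted p = 1.61e-16), or at least 6.75 against the floor. For Irgm2 the bound was 8.63. In none of these genes did the groups come near each other, but they were chosen for large rises with separated arrays, which favours such a gap. The next in size were Gbp6 (7.28), a guanylate-binding GTPase, Rtp4 (7.04), an inhibitor of viral RNA amplification, Ifit1 (6.97), Xaf1 (6.91), a pro-apoptotic gene, Trim21 (6.90, at least 5.86 against the floor) and Oasl2 (6.76, at least 6.06), an oligoadenylate synthetase-like gene. The order was not fixed: with 16 added before the logarithm Irgm2 (7.35) was followed by Ifit1 (6.70), Igtp (6.57) and Usp18 (6.51), and Mx2 stood at 5.74. Ifit1 stood at 10108, 10397 and 9129 with IFNα and CHX against 111.0, 63.6 and 68.5 with CHX alone, so that it already gave a clear signal before interferon.

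**Figure D1:**
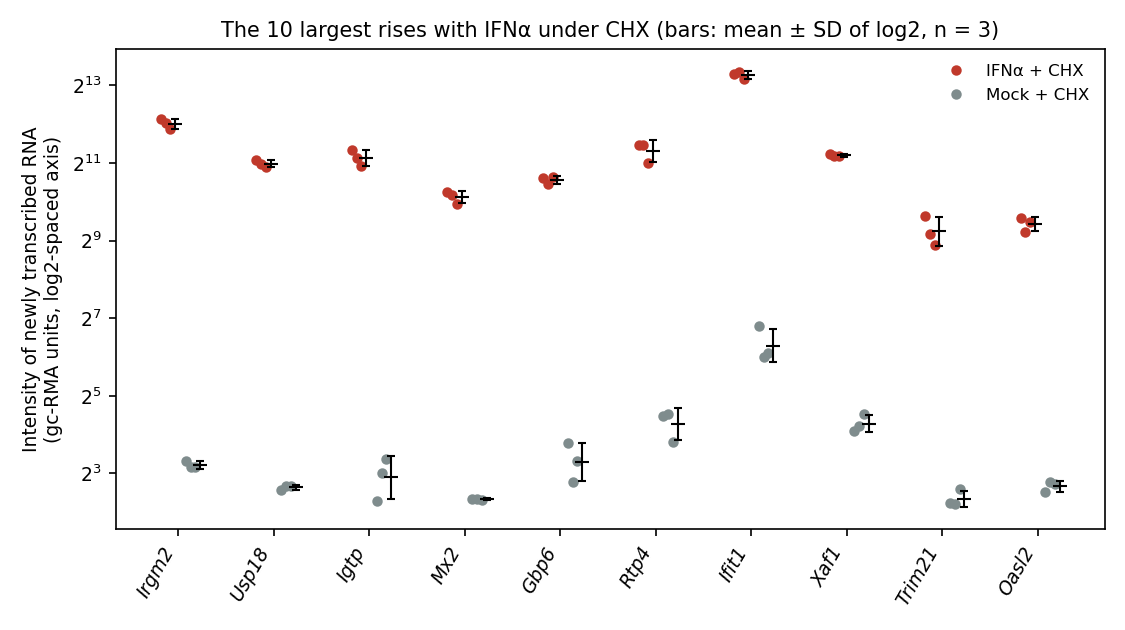
Intensity of newly transcribed RNA (gc-RMA units, log2-spaced axis) of the 10 genes with the largest rises on each of the 3 arrays with IFNα and CHX (red) and of the 3 with CHX alone (grey); bars give the mean ± SD of log2 intensity. In each gene the red and grey points are separated by a log2 difference of 6.76 or more between the means, and no red point comes near a grey point of the same gene. The choice of genes by large rises with separated arrays favours this gap.

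Within the signalling chain itself, the called genes were those of transcription factors. Of 13 measured genes for interferon receptors, kinases, STATs and IRF9, only Stat2 and Irf9 were raised, and the median change was 0.19. Stat2 had 446, 748 and 273 with IFNα and CHX against 9.8, 13.8 and 14.2 with CHX alone. Its change of 5.18 ± 0.71 (adjusted p = 0.00057) had a wide error, which came from a model of all 18 arrays. The SD of its log2 intensity was 0.73 with IFNα and CHX and 0.30 with CHX alone, but 1.82 with IFNγ and CHX. Irf9, the DNA-binding subunit of ISGF3, had 1465, 1325 and 835 with IFNα and CHX against 59.3, 36.9 and 28.0 with CHX alone, a change of 4.90 ± 0.30 (adjusted p = 5.55e-08). Thus genes of ISGF3 subunits were themselves transcribed in the absence of new protein. Ifnar1 (0.19), Ifnar2 (0.49), Jak1 (0.08) and Tyk2 (-0.06) did not pass the test. Stat3, at 0.88 (adjusted p = 0.00212), passed on the p-value but not on the 2-fold limit.

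Among the interferon regulatory factors, 3 of 6 were raised, with a median of 1.94. Irf1, a transcriptional activator of the early response, had 11268, 11656 and 10501 with IFNα and CHX against 2465, 1501 and 1320 with CHX alone. This was a change of 2.71 ± 0.24 (adjusted p = 4.07e-06). Irf1 was thus already transcribed under CHX alone. Irf7, the main amplifier of IFNα gene transcription, had 68.2, 107.8 and 31.3 against 6.1, 5.9 and 6.0 with CHX alone, a change of 3.35 ± 0.32 (adjusted p = 1.17e-05), or at least 2.56 against the floor. Both Irf1 and Irf7 missed the threshold when the model was fitted to the 6 arrays alone (adjusted p = 0.0111 and 0.0588). Irf2, an antagonist of IRF1, had 833, 414 and 645 against 425, 251 and 188 with CHX alone. Its groups overlapped, although IFNα was higher at each replicate number. Its change of 1.16 ± 0.44 was not called, without (adjusted p = 0.797) or with the replicate numbers as a block (adjusted p = 0.0797). The interferon genes that could be tested, Ifna1 (-0.18) and Ifnz (0.15), were not called.

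Of the negative regulators 3 of 16 were raised (18.8%, against 1.2% of all genes), with a median of 0.15. Beside Usp18, these were suppressors of cytokine signalling. Socs1, which encodes an inhibitor of the JAK kinases, had 214, 265 and 153 with IFNα and CHX against 46.9, 66.9 and 34.6 with CHX alone, a change of 2.11 ± 0.36 (adjusted p = 0.00491). Its call was lost in 7 alternative settings, with adjusted p-values of 0.0131 to 0.0899, while its change stayed at 1.79 or more in them. Socs2, an inhibitor of growth hormone signalling, had 151.5, 155.9 and 89.3 against 48.2, 40.4 and 47.9 with CHX alone, a change of 1.5 ± 0.22 (adjusted p = 0.00116), whose call was lost in a model of the 6 arrays alone (adjusted p = 0.128). Socs3, an inhibitor of gp130 receptor signalling, had 4274, 3927 and 3176 against 3340, 2103 and 1494 with CHX alone. The groups overlapped, although IFNα was higher at each replicate number, and its change of 0.78 ± 0.27 was not called, without (adjusted p = 0.578) or with the replicate block (adjusted p = 0.194). The genes for PIAS proteins, which bind STATs, and for the phosphatases Ptpn1, Ptpn2 and Ptpn11 had changes between -0.06 and 0.36.

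All 6 measured immunity-related GTPases were raised, with a median change of 6.49. These GTPases attack the vacuoles of intracellular parasites and bacteria. Iigp1 had 1301, 1238 and 882 with IFNα and CHX against 12.5, 12 and 12 with CHX alone, a change of 6.53 ± 0.17 (adjusted p = 4.28e-12). Irgm1, a regulator of the other members, had 4955, 4255 and 3264 against 72.6, 47.5 and 30.2 with CHX alone and changed by 6.44 ± 0.29 (adjusted p = 1.49e-09). Of the guanylate-binding proteins, another family of GTPases, 4 of 6 were raised. Gbp6, Gbp3 (6.68), Gbp7 (6.50) and Gbp2 (3.09, adjusted p = 0.0235 with the 6 arrays alone) were raised, while Gbp2b (-0.01) and Gbp8 (-0.07) were not. Gbp7 had 1415, 1377 and 1212 with IFNα and CHX against 13, 11.4 and 21.7 with CHX alone. Members of these families are near-identical in parts, so the signal of close copies could not always be told apart. Over all 146 raised genes, of any family, 20 were read by probe sets that the manufacturer marks as able to match several transcripts.

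The antiviral effectors were the broadest group, with 19 of 23 raised and a median change of 2.63. Rsad2, which encodes viperin, an enzyme that makes a chain terminator for viral polymerases, had 598, 505 and 473 with IFNα and CHX against 9.8, 8.4 and 8.6 with CHX alone. Its change was 5.87 ± 0.14 (adjusted p = 1.52e-12), or at least 5.66 against the floor. Its chromosomal neighbour Cmpk2, a nucleotide kinase gene, changed by 3.61. Eif2ak2, which encodes the double-stranded RNA kinase PKR, had 465, 841 and 522 against 14.4, 55.6 and 74.4 with CHX alone. Its change of 3.91 ± 0.55 (adjusted p = 0.000806) lost its call when only the 6 arrays were fitted (adjusted p = 0.143). Mx1 (3.80), Ifi35 (3.66), Adar (2.65), Pml (2.61) and Bst2 (2.16) rose too. Ifitm1, Ifitm2, Apobec3 and Ifi44l, with changes between -0.07 and 0.12, were not called.

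Of 7 measured genes of the oligoadenylate synthetase family, which includes enzymes that make the activator of RNase L as well as members without that activity, 5 were raised, with a median of 5.14. Oas1a had 319, 327 and 250.5 with IFNα and CHX against 9.0, 8.5 and 7.8 with CHX alone. Its change was 5.14 ± 0.12 (adjusted p = 1.24e-12), or at least 4.84 against the floor. Oasl1, an oligoadenylate synthetase-like gene, had 147.5, 377.4 and 325.5 against 4.7, 4.6 and 4.2 with CHX alone, a change of 5.87 ± 0.24 (adjusted p = 5.2e-10), or at least 4.66 against the floor. In Oasl1 array 1 lay below the others, and all 3 lay far above the arrays with CHX alone. Of the IFIT genes 3 of 5 were raised. Ifit3 had 2222, 2067 and 1075 with IFNα and CHX against 25.6, 24.1 and 21.4 with CHX alone, and Ifit2 changed by 0.84, under the 2-fold limit.

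Of 19 sensors of foreign nucleic acid and their adaptors, 8 were raised, with a median of 1.06. The cytosolic RNA helicases led. Ddx58, which encodes RIG-I, had 1572, 1385 and 1335 with IFNα and CHX against 34.2, 22.6 and 27.8 with CHX alone, a change of 5.68 ± 0.17 (adjusted p = 1.1e-11). Ifih1, which encodes MDA5, had 247.1, 170.1 and 194.2 against 7.3, 6.1 and 6.2 with CHX alone, a change of 4.95 ± 0.18 (adjusted p = 9.92e-11), or at least 4.28 against the floor. The endosomal RNA receptor gene Tlr3 changed by 3.83 and the helicase gene Dhx58 by 3.08. The adaptor genes Mavs (-0.17) and Ticam1 (0.49) and the kinase gene Tbk1 (0.15) were not called. The adaptor gene Sting1 changed by 1.26 and was not called (adjusted p = 0.945), though another of its probe sets was raised.

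The poly(ADP-ribose) polymerase family split as well. Parp14 (6.25 ± 0.15, adjusted p = 1.15e-12, at least 5.57 against the floor), Parp9 (5.67), Parp12 (4.29) and Parp3 (1.39) were raised together with Dtx3l (5.92), the ubiquitin ligase partner of PARP9. These were 5 of 13, with a median of 0.41. Parp14 had 507, 481 and 491 with IFNα and CHX against 5.6, 7.0 and 6.9 with CHX alone. Parp1 (0.13) and Parp2 (0.22), which act in DNA repair, were not called. Of the ISG15 conjugation genes, Trim25 (4.04) was raised beside Usp18, whereas Uba7 (0.25), Ube2l6 (0.27) and Herc6 (0.34), the activating, conjugating and ligase enzymes, were not called. Isg15 itself was not among the 5 measured genes of this list. The TRIM family had 7 of 12 raised, among them Trim12c (4.69), Trim30a (4.59) and Trim25, which had 8738, 8815 and 9346 with IFNα and CHX against 614.7, 534.2 and 490.0 with CHX alone. Of the Schlafen genes Slfn8 (6.04) and Slfn9 (1.53, adjusted p = 0.0214 with the 6 arrays alone) were raised and Slfn2 (-0.03) was not.

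In the chemokine list, 3 of 15 genes were raised, all of them ligands of the receptor CXCR3, and the median was 0.04. Cxcl9 had 623, 540 and 319 with IFNα and CHX against 6.5, 6.3 and 5.8 with CHX alone, a change of 6.26 ± 0.21 (adjusted p = 4.23e-11), or at least 5.52 against the floor. Cxcl11 had 284.9, 272.2 and 114.8 against 9.4, 8.3 and 7.9 with CHX alone. Its change was 4.61 ± 0.30 (adjusted p = 1.07e-07), or at least 4.32 against the floor. For both genes array 3 of IFNα with CHX was the lowest. Cxcl10 had 15790, 13847 and 9237 with IFNα and CHX against 1530, 584 and 324 with CHX alone, a change of 4.26 ± 0.43 (adjusted p = 1.83e-05). In both groups array 1 was the highest and array 3 the lowest, and the call was lost with only the 6 arrays in the model (adjusted p = 0.0687). The neutrophil attractants Cxcl1 (-0.15) and Cxcl2 (-0.04) and the monocyte attractant Ccl2 (0.04) were not called.

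Of 16 genes of antigen presentation, 7 were raised, with a median of 0.59. Tap1, a subunit of the peptide transporter for MHC class I, had 408, 349 and 311 with IFNα and CHX against 5.7, 5.0 and 5.0 with CHX alone. It changed by 6.08 ± 0.22 (adjusted p = 7.34e-11), or by at least 5.09 against the floor. Nlrc5, the transactivator of MHC class I genes, had 82.2, 62.0 and 74.0 against 6.3, 6.2 and 7.8 with CHX alone and changed by 3.42 ± 0.15 (adjusted p = 8.97e-10), or by at least 2.80 against the floor. Psmb9 (2.72), an immunoproteasome subunit, Tapbp (2.09), the class I genes H2-K1 (1.78) and H2-D1 (1.78) and B2m (1.29) rose less. Among ligands and death genes, 6 of 13 were raised. Cd274, which encodes the inhibitory ligand PD-L1, had 203.1, 230.6 and 208.4 with IFNα and CHX against 5.8, 7.0 and 6.0 with CHX alone, a change of 5.10 ± 0.14 (adjusted p = 5.25e-12), or at least 4.37 against the floor. Daxx changed by 2.79, and Casp4, an inflammatory caspase gene, by 1.71. Psmb9, Daxx and Casp4 lost their calls with only the 6 arrays in the model (adjusted p = 0.0154, 0.0428 and 0.0209).

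Lists of genes that answer other signals were examined too, beside a share of 1.2% raised over all genes, at which lists of this length would hold few calls or none. Of 22 immediate-early and STAT3-type target genes, 0 were raised or lowered, with a median of 0.16 and a highest change of 1.03 (Bcl3, adjusted p = 1). Of 15 targets of NF-κB, only Il6 was raised. It had 4134, 3753 and 2467 with IFNα and CHX against 886, 957 and 743 with CHX alone, a change of 1.98 ± 0.20 (adjusted p = 2.05e-05), which missed the threshold in a model of the 6 arrays alone (adjusted p = 0.0303). The canonical histone genes had 0 of 9 raised, with changes between -0.23 and 0.29.

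**Figure D2:**
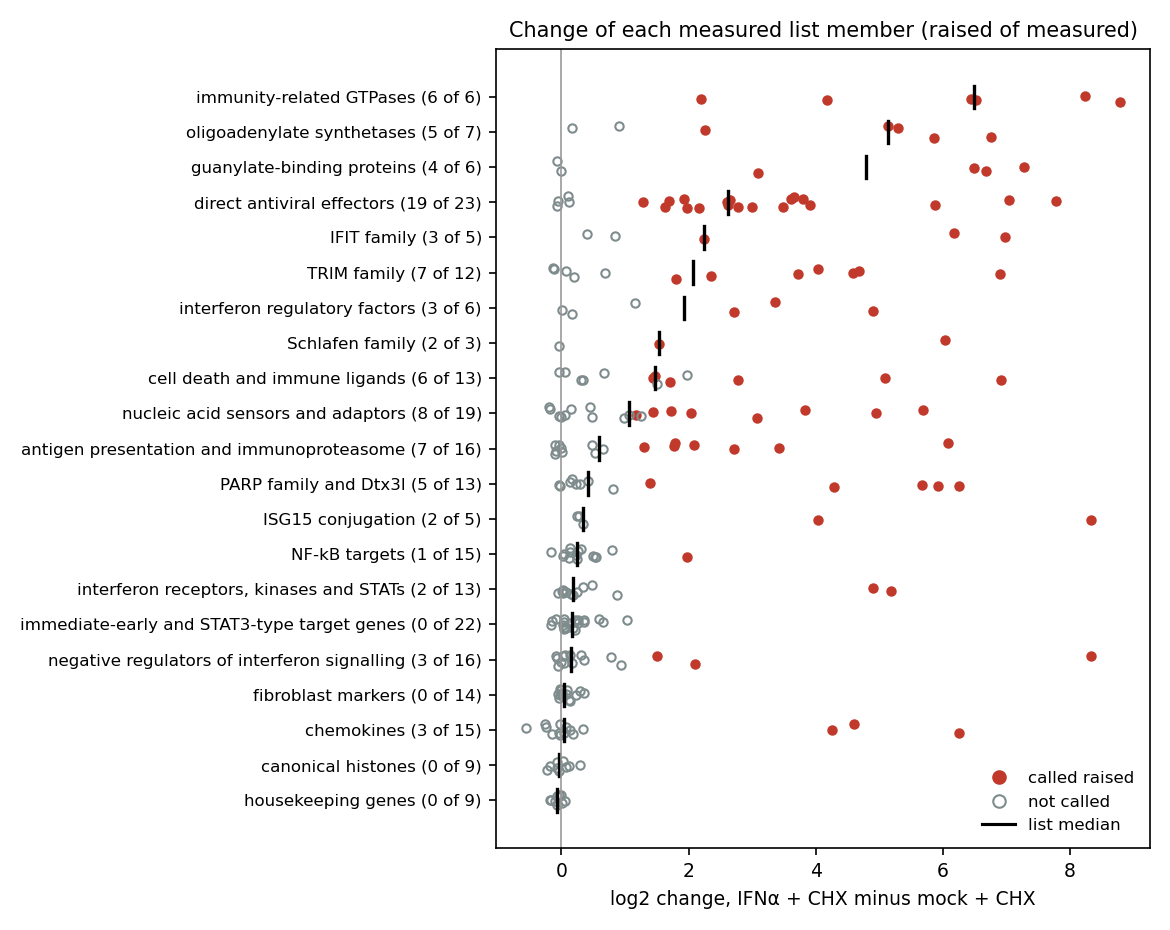
Log2 change of every measured member of each gene list (x axis, IFNα with CHX minus CHX alone; red filled points were raised, grey open points were not called, black lines are list medians), with the number raised of those measured beside the list's name. The immunity-related GTPases had 6 of 6 raised and a median of 6.49, while the immediate-early genes had 0 of 22 and a median of 0.16.

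The response with CHX was then set against the response without CHX, which was measured on 6 other arrays. Without CHX, 72 genes were raised by IFNα (0.594% of genes tested). Of these, 70 were also raised with CHX, which is 97.2% of the genes raised without CHX and 47.9% of the 146 raised with it. The remaining pair, Msrb3 and Tmcc3, changed by -0.00 and 0.57 with CHX. The difference between the responses was tested as an interaction. The response was larger with CHX for 36 genes (0.297%), of which 35 were among the 146 raised genes, and smaller for 0 genes in limma, with 541 genes above and 78 below 0 at an unadjusted p under 0.05. The raised genes were chosen partly on the same arrays, which favours positive differences among them. Over the 72 genes chosen instead by their response without CHX, 66 differences were positive, 21 were called and the median was 1.24, beside a median of 0.02 over all genes.

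The 5 largest differences belonged to genes with no called response without CHX. Cxcl9 changed by 6.26 with CHX and by 0.74 without it. Its arrays without CHX read 10, 13.1 and 10 with IFNα against 5.8, 7.9 and 6.1 in mock cells, and the difference between the responses was 5.52 ± 0.30 (SE, adjusted p = 7.2e-07). The Cxcl11 change was 4.61 with CHX and 0.12 without it, a difference of 4.49 ± 0.42 (adjusted p = 0.000107). Among the groups with and without IFNα, both chemokines gave a large signal only where IFNα and CHX were combined. Nlrc5 showed the same pattern, with intensities of 5.1, 5.4 and 5.0 with IFNα but no CHX, against 5.1, 4.9 and 5.6 in mock cells. Its difference was 3.43 ± 0.21 (adjusted p = 1.47e-06), or 2.78 with values under the array median set to it. Cyp26a1, which encodes a retinoic acid hydroxylase, had 60.3, 37.2 and 38.2 with IFNα and CHX, against 4.4, 4.3 and 4.3 with CHX alone. Without CHX it stayed at 4.2 to 4.3 on all arrays of IFNα and mock cells, and the difference was 3.35 ± 0.34 (adjusted p = 0.000173), or 2.06 with values under the array median set to it. Apol7a (3.00), an apolipoprotein L gene, Sp100 (2.80), a nuclear body component, and BC023105 (2.39, or 1.78 with values under the array median set to it) also had called differences and no called response without CHX. The rise of Sp100 itself lost its call with only the 6 arrays in the model (adjusted p = 0.0139). Of the 146 raised genes, 63 changed less than 2-fold without CHX, and the difference was called for 14 of those.

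Other genes responded in both settings and more strongly with CHX. The Rsad2 change was 5.87 with CHX and 2.98 without it, a difference of 2.89 ± 0.20 (adjusted p = 5.13e-06). Without CHX, Rsad2 had 77.5, 73.2 and 52.9 with IFNα against 8.6, 8.4 and 8.4 in mock cells, so that its arrays without interferon lay within 8.4 to 9.8 with and without CHX. Oasl1 had a difference of 2.83 ± 0.34 (adjusted p = 0.00113) and Tap1 one of 2.51 ± 0.30 (adjusted p = 0.00112). With values under the array median set to it, these were 2.76 and 2.12. Usp18, with 659, 650 and 578 with IFNα without CHX, differed by 1.72 ± 0.21 (adjusted p = 0.00138), and Irgm2 by 1.57 ± 0.20 (adjusted p = 0.00149). Rtp4 and Ifit1 changed nearly as much without CHX as with it, with differences of 0.10 ± 0.34 and 0.13 ± 0.27 that were not called. For 4 of the 146 genes the estimate was smaller with CHX. Cxcl10 had a difference of -1.47 ± 0.61 (adjusted p = 1) and Irf1 one of -1.24 ± 0.34 (adjusted p = 0.312). In both, CHX alone went with a higher level. Irf1 had 2465, 1501 and 1320 with CHX alone, against 376, 204 and 213 in mock cells without CHX, and Cxcl10 had 1530, 584 and 324 against 70.4, 49.1 and 35.6. The part of this starting level in the smaller estimates was not tested.

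**Figure D3:**
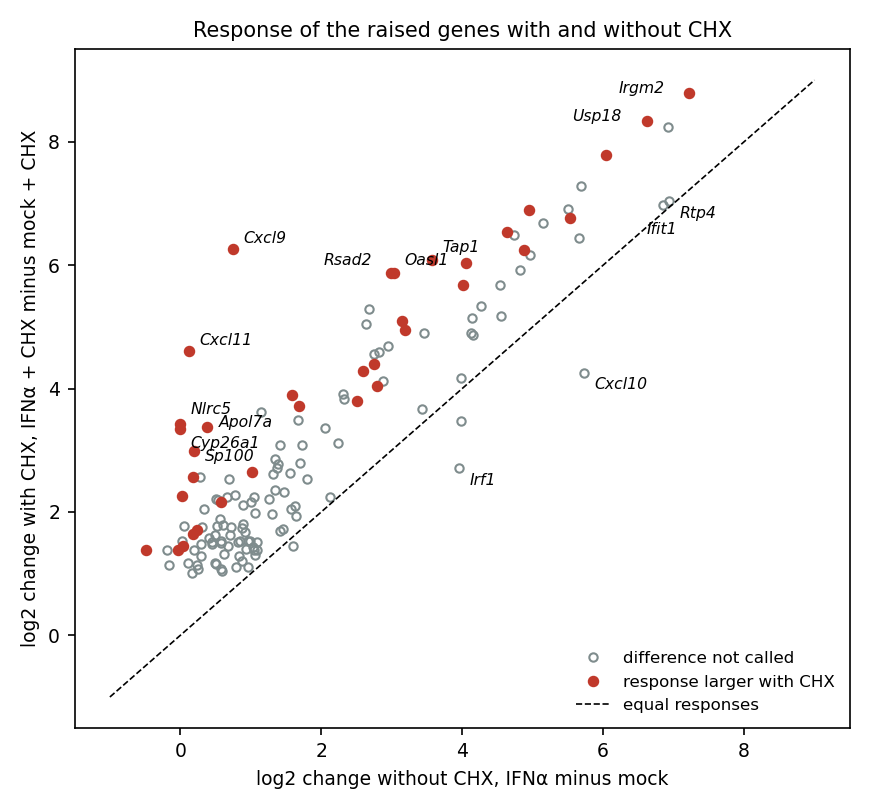
Log2 change of the 146 raised genes with CHX (y axis, IFNα with CHX minus CHX alone) against that without CHX (x axis, IFNα minus mock); red points had a called difference between the responses, and the dashed line marks equal responses. The chemokine gene Cxcl9 lies at 6.26 with CHX and 0.74 without it, and 4 genes lie below the line, among them Cxcl10 and Irf1.

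The arrays of IFNα with CHX were also compared directly with those of IFNγ with CHX. Over all genes, 186 were higher (1.53%) and 277 lower (2.29%) with IFNα. These counts rested on the model of all 18 arrays: with only the 6 arrays of the comparison, 331 higher and 482 lower probe sets became 64 and 104. Of the 146 raised genes, 73 were higher with IFNα, 23 were lower and 50 had no called difference. Mx2 had 1213, 1155 and 984 with IFNα and CHX, against 5.2, 5.0 and 5.2 with IFNγ and CHX, a difference of 7.76 (adjusted p = 1.66e-16), or at least 6.74 against the floor. Usp18 followed with 24.0, 40.2 and 24.9 under IFNγ and a difference of 6.13 (adjusted p = 3.46e-12). Ifit3 (6.01), Oasl1 (5.88, at least 4.65 against the floor) and Rsad2 (5.78, at least 5.60) completed the 5 largest. In the oligoadenylate synthetase list 5 of 7 members were higher with IFNα and 0 were lower. Of the 73 genes that were higher with IFNα, 23 were also raised by IFNγ with CHX and 50 changed less than 2-fold there.

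The raised genes that were lower with IFNα were led by a chemokine. Cxcl9 had 623, 540 and 319 with IFNα and CHX, against 9420, 8460 and 8316 with IFNγ and CHX, a difference of -4.20 (adjusted p = 8.35e-09). Hoxd3, a homeobox gene, had 22.1, 38.4 and 53.9 with IFNα and CHX, against 523.4, 472.6 and 507.7 with IFNγ and CHX, a difference of -3.81. Its rise with IFNα of 1.76 lost its call in 7 alternative settings, among them leaving out array 1 or 2 with CHX alone or array 2 or 3 with IFNα and CHX (adjusted p between 0.0324 and 0.0356). Nlrc5 (-3.44), Apol6 (-3.27), an apolipoprotein L gene, and Gpr155 (-3.15) were the others of the 5 most in favour of IFNγ. Socs1 was lower with IFNα too, by -2.32 (adjusted p = 0.000762). Most of the immunity-related GTPase genes had no called difference. Irgm2 (-0.24, adjusted p = 0.405), Igtp (-0.49) and Irgm1 (-0.67) were among these, and Iigp1 (-1.47, adjusted p = 5.68e-05) was lower with IFNα. Irf9 (0.45) and Trim21 (0.05) had no called difference either.

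**Figure D4:**
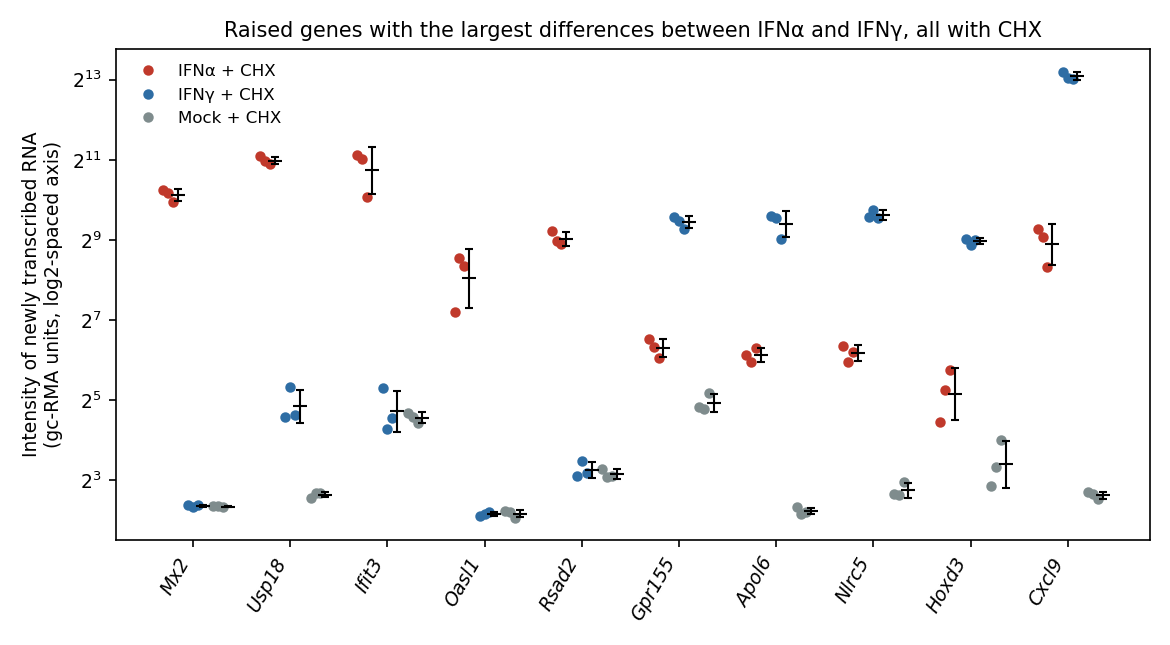
Intensity (gc-RMA units, log2-spaced axis) on each array of IFNα with CHX (red), IFNγ with CHX (blue) and CHX alone (grey) for the raised genes with the 5 largest differences in each direction; bars give the mean ± SD of log2 intensity, n = 3. The antiviral gene Mx2 stayed at 5.0 to 5.2 with IFNγ, while Cxcl9 reached 8316 to 9420 with IFNγ and 319 to 623 with IFNα.

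The promoters of the raised genes were searched for the motifs named above, on both strands, from 250 bases before to 50 bases after the start. A promoter was at hand for 117 of the 146 genes. Of these, 37 (31.6%) held an ISRE-type match, against 363 of 9821 (3.70%) tested genes with a promoter and 1079 of 27025 (3.99%) genes in the whole table. GAS-type matches were found for 18 of the 117 genes (15.4%), against 803 of the 9821 (8.18%). The median change was 2.13 over the 80 raised genes with no ISRE-type match, 3.72 over the 25 with 1 and 4.00 over the 12 with 2 or more. All 3 groups ranged widely. Of the raised genes that were higher with IFNα than with IFNγ, 19 of 58 held an ISRE-type match and 4 of 58 a GAS-type match. Among those lower with IFNα the counts were 2 of 15 and 4 of 15. Raised genes with no called difference between the interferons had 16 of 44 (36.4%) and 10 of 44 (22.7%). The ISRE-type share was thus not particular to the genes that were higher with IFNα. Of the genes also raised without CHX, 26 of 57 (45.6%) held an ISRE-type match, and of those changed less than 2-fold without CHX 7 of 49 (14.3%). A match is a stretch of letters and was not tested as a binding site.

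**Figure D5:**
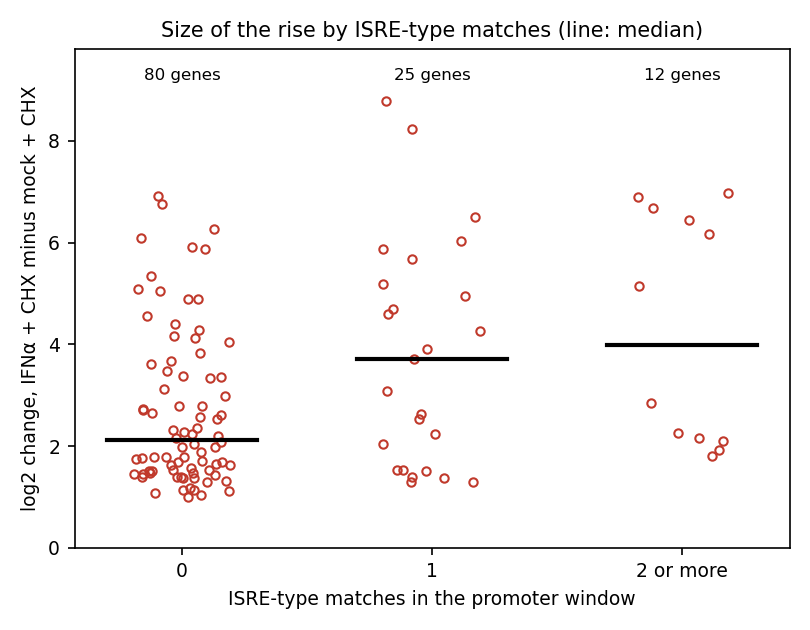
Log2 change with IFNα and CHX (y axis) of the raised genes with a promoter sequence, by the number of ISRE-type matches in the 300 bases searched (x axis); points are genes and lines are medians. The medians were 2.13, 3.72 and 4.00 for 80, 25 and 12 genes, and the groups overlapped over most of their range.

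Several raised genes lay side by side on their chromosomes. In the order of protein-coding genes in the RefSeq table, 27 of 134 raised genes that could be placed had another raised gene as a direct neighbour, in 12 runs. No matching share was determined for other sets of tested genes, so this count is a description only. Parp14, Dtx3l and Parp9 formed a run on chromosome 16, with changes of 6.25, 5.92 and 5.67. Cxcl9, Art3 (2.53), an ADP-ribosyltransferase family gene, and Cxcl10 formed one on chromosome 5. Psmb9 and Tap1 on chromosome 17, Oasl2 and Oasl1 on chromosome 5, and Rsad2 and Cmpk2 on chromosome 12 were pairs. On chromosome 14, Irf9 stood next to Rnf31 (2.24), a ubiquitin ligase gene.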

How the data were processed

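The authors hybridized 4sU-tagged RNA of 3 biological replicates for each of 6 treatments to Affymetrix mouse arrays and deposited 1 linear intensity per probe set and array, normalized with gc-RMA; the submitters' notes name Affymetrix Expression Console. No further scaling was applied to the 18 arrays. From 45101 probe sets, 64 controls were removed. Detection calls, on which the study filtered, were not used here, so a matching number was kept by rank of the highest value (27773 with ties, lowest highest value 8.5). Log2 intensities without an added constant were modelled by treatment with limma 3.58.1 (R 4.3.3; 12 residual and 2.05 prior degrees of freedom), with Benjamini-Hochberg adjustment over all probe sets kept. Calls needed an adjusted p under 0.01 and a 2-fold change. The model was tested on simulated data. A single symbol was annotated for 22348 of the probe sets kept (12121 genes), several for 659 and none for 4766; the probe set with the highest mean over all arrays stood for a gene. Listed genes without such a probe set were not analysed here.

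The named genes were the 10 largest rises and falls, up to 4 called members of each list, the main regulators, and the largest called differences with against without CHX and between interferons; other genes were named after their values were seen. Members and lists were chosen with earlier results of these data known. Same-numbered arrays of both groups deviated together (correlations of 0.784, 0.371 and 0.627). Arrays with different numbers had correlations between -0.743 and 0.165. The titles give the replicate numbers only, so the pairing of same-numbered arrays is an inference. Arrays have no sequencing depth, and 3 arrays per treatment limit the precision. Alternatives changed the added constant, filter, normalization, arrays in the model, replicate block and variance model, or left out single arrays.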

Additional observations from a re-analysis of the deposited data

Results flagged for a closer look

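The response to IFNα differed between cells with and without CHX for 26 of the named genes, by the interaction test in limma at the threshold used throughout. All differences below are log2 changes with CHX minus log2 changes without CHX, and all were positive. The chemokine genes Cxcl9 (5.52) and Cxcl11 (4.49) stood first, followed by Nlrc5 (3.43), Cyp26a1 (3.35), Apol7a (3.00), Rsad2 (2.89), Oasl1 (2.83), Sp100 (2.80), Tap1 (2.51), BC023105 (2.39) and Apol6 (2.30). Differences between 1.5 and 2 were found for Slfn8 (1.98), Cd274 (1.96), Trim21 (1.95), Iigp1 (1.89), Gpr155 (1.86), Ifih1 (1.77), Mx2 (1.75), Usp18 (1.72), Parp12 (1.70), Parp9 (1.66) and Irgm2 (1.57). The smallest called differences were those of Casp4 (1.47), Parp14 (1.38), Trim25 (1.25) and Oasl2 (1.23). Some fell with values under the array median set to it, among them Nlrc5 (2.78), Tap1 (2.12), Cyp26a1 (2.06) and Trim21 (1.23). Others, such as Oasl2 (1.39), did not fall. The estimate of Gpr155 without CHX was -0.48 and was not called (adjusted p = 0.746).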

How the results depend on the processing

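Counts in this paragraph are probe sets. The 247 raised probe sets became 128 when only the 6 arrays were in the model, and 217 to 237 when single arrays were left out. The 1 lowered probe set became 0 with log2(value + 16), with log2(value + 1) and with only the 6 arrays, and 0 to 4 without single arrays (4 without array 1 of CHX alone, 0 without array 2 or array 3 of IFNα with CHX). The 52 larger responses with CHX became 29 with only the arrays of the comparison and 38 to 45 without single arrays; the 0 smaller ones became 0 to 2. Against IFNγ, 331 higher and 482 lower probe sets became 64 and 104 with only the 6 arrays, and 260 to 366 and 395 to 501 without single arrays. Fewer arrays leave fewer degrees of freedom in these models. With the replicate numbers as a block, which uses the pairing, the count raised was 272 and that lowered 1, the interaction gave 68 larger responses, and 482 were higher and 579 lower than with IFNγ; the block changed the call of none of the 61 named genes in the main comparison. No alternative turned the direction of a named gene. The sizes depended on the treatment of low values. Of 59 named raised genes, 38 had a change smaller by over 1.5-fold with log2(value + 16), among them Mx2 (5.74), Tap1 (4.12), Oasl1 (3.77), Apol6 (2.05) and Cyp26a1 (1.57). Setting values under the array median to it, an alternative chosen after seeing the data, did so for 15, with Apol6 at 2.75 and Cyp26a1 at 2.09, and left 235 probe sets raised. Fitting only the 6 arrays ended the call of 16 of them. Socs1 also lost its call with log2(value + 16) and without a filter, and Hoxd3 did too; Gpr155 lost its call without array 1 of IFNα with CHX (adjusted p = 0.0105) or array 2 of CHX alone (adjusted p = 0.0104). The number of raised members of every list was the same when probe sets were chosen by their mean over the 6 arrays.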

Other observations

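Of the 146 raised genes, 63 belonged to none of the lists. They were picked here for their size, after the values had been seen. Samd9l, a restriction factor gene for poxviruses, changed by 5.34 with IFNα and CHX and by 4.26 with IFNα alone. Lgals3bp, a secreted galectin-binding protein gene, changed by 5.05 with CHX and by 2.63 without it, and Tor3a, a torsin family ATPase gene, by 4.86 and 4.16. Rnf213, which encodes a large ubiquitin ligase, changed by 4.40 with CHX and by 2.75 without it, a called difference between the responses. Crem, a gene for a cAMP-responsive transcription factor, changed by 2.24 with IFNα and CHX and was lower there than with IFNγ and CHX, by -2.19. Where a raised gene had several probe sets, these did not always move together. Of 61 such genes, all probe sets were raised in 28, and 8 had a probe set with a change below 0. Conversely, 8 genes were raised by another probe set only, among them Sting1, whose probe set of highest mean changed by 1.26.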
